A study of Bos taurus with 22 samples.

Results

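TLR5, ACKR2 and LEPR are 3 receptor genes, taken from the 24616 genes counted in the subcutaneous backfat of 22 beef steers. Their rows of the count table were selected by gene identifier (ENSBTAG00000000477 for TLR5, ENSBTAG00000014162 for ACKR2 and ENSBTAG00000005910 for LEPR). TLR5 and LEPR were chosen by their difference between high and low residual feed intake in Kinsella Composite steers, and ACKR2 by the same difference in Angus steers. Those contrasts are therefore given below as descriptions with no test, and tests are kept for the breeds and contrasts that the choice did not use.

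Residual feed intake adjusted for fatness (RFIfat, in kg) is the feed an animal eats beyond or below what its growth and fat predict, and efficient steers are labelled L-RFI and inefficient ones H-RFI. The Angus (ANG) steers numbered 4 H-RFI and 4 L-RFI, and the Charolais (CHAR) steers 3 and 3. The Kinsella Composite (KC) steers, a crossbred population that the labels give as Hereford x Angus, numbered 4 and 4. Steers of all 6 groups were housed in a feedlot on a barley-based finishing diet whose supplement held Rumensin, the ionophore monensin, and backfat was taken after slaughter. RFIfat ran from 0.54 to 2.03 in the H-RFI and from -1.77 to -0.75 in the L-RFI steers. The labels give the cell type as adipocytes, but the RNA came from whole backfat, and none of the 5 adipocyte markers looked for could be paired with an identifier of the table, so this label could not be checked. In whole tissue, fewer cells of a type and less RNA per cell cannot be told apart.

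TLR5 is the toll-like receptor for bacterial flagellin. It signals through the adaptor MYD88 and the NF-kappaB pathway to inflammatory cytokines and chemokines such as CXCL8. ACKR2 is an atypical chemokine receptor that binds inflammatory CC chemokines without G protein signalling, takes them into the cell for degradation, and is best known on lymphatic endothelium. LEPR is the receptor of leptin, the hormone that adipocytes release in proportion to fat stores. Its long isoform signals through JAK2 and STAT3, and its shorter isoforms differ in the intracellular part. The table holds 1 count per gene, so LEPR isoforms (3 RefSeq transcripts) and those of ACKR2 (4 RefSeq transcripts) were not separated.

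Each steer had between 8033008 and 12426133 reads on genes (median 9803200), and 3 reads, the limit used here for a level near 0, corresponded to 0.241 to 0.373 CPM (reads scaled to the total of the steer). In 6 steers the share of uniquely placed reads that could not be assigned to 1 gene was below 0.6%, against 0.938 to 2.16% in the other steers. They were F8 (KC H-RFI), F10 and F14 (KC L-RFI), F28 (ANG H-RFI), and F18 and F25 (ANG L-RFI), and values without them are given where they bear on a result. The share of reads on genes ran from 39.5 to 41.4% in KC H-RFI and from 37.2 to 38.5% in KC L-RFI steers, with no overlap. Its part in the KC differences below was not tested.

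TLR5 was counted in every steer, with 11 to 98 reads. In KC H-RFI steers it stood at 3.55 CPM in F1, 1.31 in F7, 1.02 in F8 and 3.70 in F9 (CPM normalised by TMM, the trimmed mean of M values, here and in all levels below). In KC L-RFI steers it stood at 9.93 CPM in F10, 5.76 in F11, 5.41 in F14 and 8.47 in F16. Every L-RFI steer was above every H-RFI steer, with means of 7.39 ± 2.17 and 2.40 ± 1.43 CPM (SD, n = 4 each). The log2 fold change of L-RFI against H-RFI (log2FC) was 1.62 (SE 0.42), and 1.32 without the steers of low ambiguous share. This is the contrast that chose TLR5. Groups without overlap made up 10.8% of the 13725 genes compared in KC.

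KC H-RFI had the lowest TLR5 median of the 6 groups. In ANG H-RFI steers TLR5 was at 7.08 CPM in F20, 5.88 in F21, 9.12 in F28 and 2.41 in F32. In ANG L-RFI steers it was at 3.42 CPM in F18, 7.04 in F23, 5.98 in F24 and 3.64 in F25. The range of the L-RFI steers lay inside that of the H-RFI steers, at 6.12 ± 2.81 and 5.02 ± 1.78 CPM (SD, n = 4 each). In CHAR, the H-RFI steers F36, F43 and F48 had 4.33, 9.54 and 3.15 CPM. The CHAR L-RFI steers F33, F46 and F47 had 6.91, 8.57 and 8.56 CPM. The means of CHAR H-RFI and CHAR L-RFI were 5.67 ± 3.40 and 8.02 ± 0.953 CPM (SD, n = 3 each). The H-RFI steer F43 was above all 3 L-RFI steers. In order of the group median, TLR5 went from CHAR L-RFI (8.56 CPM) through KC L-RFI (7.12), ANG H-RFI (6.48), ANG L-RFI (4.81) and CHAR H-RFI (4.33) to KC H-RFI (2.43), and each group overlapped the next.

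In the breeds that did not choose it, TLR5 was not called different between RFI groups. Genes were called where edgeR's quasi-likelihood test gave an FDR below 0.1 and the log2FC was 1 or more in size. This rule called 0.0% of the genes tested within ANG (686 genes had an unadjusted p under 0.05), 0.0% of those within CHAR (636 genes) and 0.00729% of those within KC (2504 genes). For TLR5 the log2FC was -0.29 in ANG (SE 0.39, FDR = 0.996) and 0.50 in CHAR (SE 0.39, FDR = 0.959). By an exact permutation test of log2 levels, p was 0.714 for the ANG and 0.4 for the CHAR steers, where 3 steers against 3 cannot go below 0.1. The value of ANG turned to 0.36 without F18, F25 and F28. Over ANG and CHAR together the log2FC was 0.11 (SE 0.32, FDR = 0.9999), and the ANG and CHAR differences were 0.78 apart on the log2 scale (SE 0.64, FDR = 0.9998). The KC difference exceeded the mean of ANG and CHAR by 1.51 (SE 0.54), a value that carries the contrast of the choice and has no test.

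ACKR2 had 20 to 156 reads per steer. In ANG H-RFI steers it was at 9.48 CPM in F20, 9.65 in F21, 8.61 in F28 and 15.0 in F32. In ANG L-RFI steers it was at 3.98 CPM in F18, 2.86 in F23, 6.94 in F24 and 2.27 in F25. Every ANG L-RFI steer was below every ANG H-RFI steer, at 4.01 ± 2.07 against 10.7 ± 2.93 CPM (SD, n = 4 each). The log2FC was -1.42 (SE 0.34), and -1.22 without the steers of low ambiguous share. This contrast chose ACKR2, and 2.86% of the 13613 genes compared in ANG had groups without overlap.

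ACKR2 was also lower on average in the L-RFI steers of the breeds that did not choose it, without passing the test. In CHAR the H-RFI steers F36, F43 and F48 had 8.34, 6.04 and 9.79 CPM. The CHAR L-RFI steers F33, F46 and F47 had 7.18, 3.85 and 4.55 CPM, so that 2 of the 3 were below every H-RFI steer. Groups without overlap were found for 10.3% of the 13737 genes compared in CHAR, and ACKR2 was not among them. In KC the H-RFI steers F1, F7, F8 and F9 had 14.4, 9.34, 12.2 and 10.9 CPM. The KC L-RFI steers F10, F11, F14 and F16 had 7.72, 7.47, 5.41 and 14.2 CPM, so that 3 of the 4 were below every H-RFI steer and F16 lay among them. The means were 8.06 ± 1.89 and 5.19 ± 1.76 CPM in CHAR (SD, n = 3 each) and 11.7 ± 2.14 and 8.69 ± 3.79 CPM in KC (SD, n = 4 each), H-RFI first.

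In edgeR's quasi-likelihood test the log2FC of ACKR2 was -0.63 in CHAR (SE 0.31, FDR = 0.948) and -0.43 in KC (SE 0.28, FDR = 0.435). By the exact permutation test p was 0.2 for CHAR and 0.171 for KC. Over CHAR and KC together the log2FC was -0.53 (SE 0.24, FDR = 0.304), with an unadjusted p of 0.0412. That comparison called 0.0% of 14666 genes, although 15.3% of them (2249 genes) had an unadjusted p under 0.05. The mean of ANG and CHAR also called 0.0% (701 genes at an unadjusted p under 0.05). The CHAR and KC values were 0.20 apart (SE 0.49, FDR = 0.955). Leaving out the L-RFI steer F16 moved the KC value to -0.76, and leaving out F8, F10 and F14 moved it to -0.09. In order of the group median, ACKR2 went from KC H-RFI (11.5 CPM) through ANG H-RFI (9.56), CHAR H-RFI (8.34), KC L-RFI (7.59) and CHAR L-RFI (4.55) to ANG L-RFI (3.42), with each group overlapping the next. The places of the ANG groups in this order carry the contrast that chose ACKR2.

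**Figure D1:**
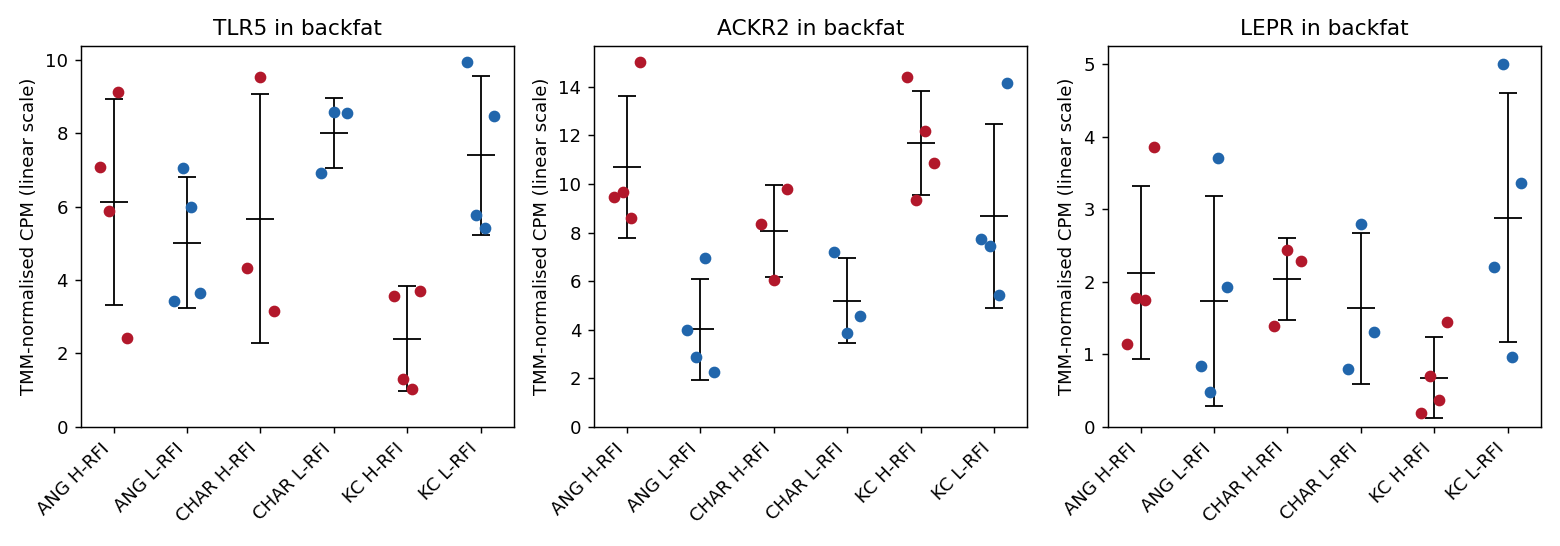
TMM-normalised CPM of TLR5, ACKR2 and LEPR (vertical axes, linear) in each steer of the 6 groups, H-RFI in red and L-RFI in blue; the horizontal dash is the group mean and the bar its SD. The 4 KC H-RFI steers have TLR5 between 1.02 and 3.70 CPM and the 4 ANG L-RFI steers have ACKR2 between 2.27 and 6.94 CPM.

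LEPR was low, with 2 to 53 reads per steer (median 17 over the 22 steers), and is given first as reads. The KC H-RFI steers F1, F7, F8 and F9 had 2, 8, 4 and 18 LEPR reads. The KC L-RFI steers F10, F11, F14 and F16 had 20, 53, 8 and 29 reads. The L-RFI steers F10, F11 and F16 were above every H-RFI steer, whereas F14 lay inside the H-RFI range. The exact 95% Poisson interval, which covers counting error only, ran from 0.242 to 7.22 reads for the 2 reads of F1, from 10.7 to 28.4 for the 18 of F9, from 3.45 to 15.8 for the 8 of F14 and from 39.7 to 69.3 for the 53 of F11. The 2 reads of F1 were below the limit of 3 reads.

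On the CPM scale, LEPR was at 0.677 ± 0.555 in KC H-RFI and 2.89 ± 1.72 in KC L-RFI steers (SD, n = 4 each). The log2FC was 2.05 (SE 0.61), and 2.39 without F8, F10 and F14, in the contrast that chose LEPR. The gene passed the low-count filter of KC, more than 1 CPM in at least 50% of the steers, with 4 of 8 steers, of which 3 were L-RFI. A gene that passes mainly through the group where it is high has to differ, and without F9, F10, F11 or F16 LEPR no longer passed. The log2FC ran from 1.76 to 2.34 over the 4 fits with another steer left out.

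**Figure D2:**
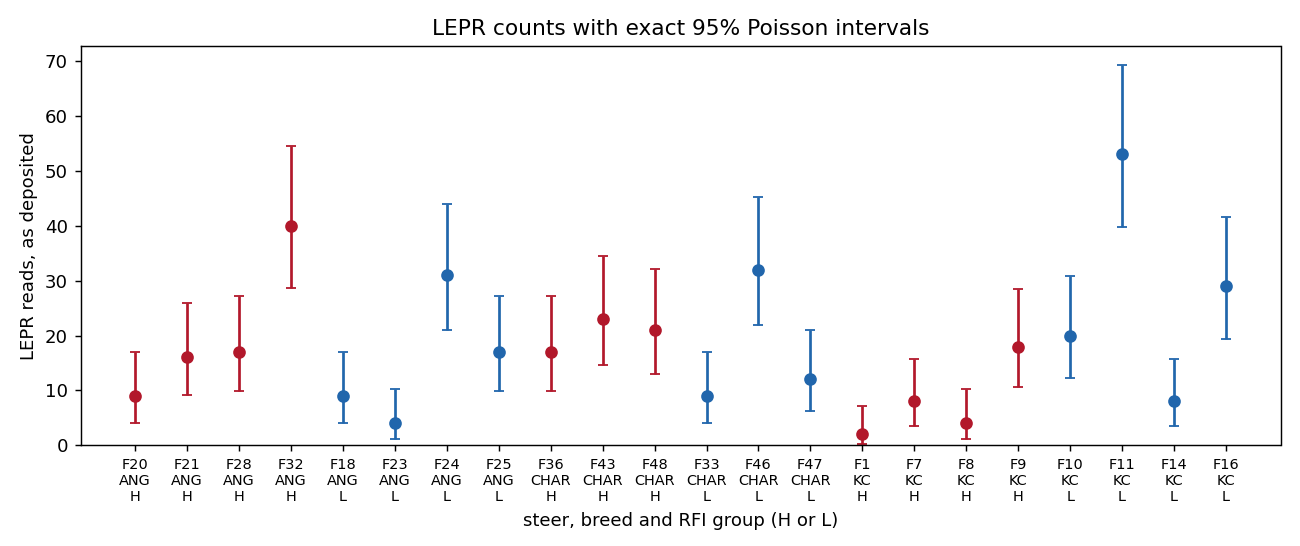
LEPR reads as deposited (vertical axis) in each of the 22 steers (horizontal axis, with breed and RFI group; H-RFI in red, L-RFI in blue), with exact 95% Poisson intervals as bars. F1 (KC H-RFI) has 2 reads and F11 (KC L-RFI) has 53, while the ANG and CHAR steers have 4 to 40 reads with RFI groups that overlap.

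In ANG the H-RFI steers F20, F21, F28 and F32 had 9, 16, 17 and 40 LEPR reads. The ANG L-RFI steers F18, F23, F24 and F25 had 9, 4, 31 and 17 reads. In CHAR the H-RFI steers F36, F43 and F48 had 17, 23 and 21 reads. The CHAR L-RFI steers F33, F46 and F47 had 9, 32 and 12 reads. In both breeds the groups overlapped, with levels of 2.13 ± 1.19 and 1.74 ± 1.45 CPM in ANG H-RFI and L-RFI (SD, n = 4 each) and 2.04 ± 0.566 and 1.63 ± 1.04 CPM in CHAR (SD, n = 3 each).

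The log2FC of LEPR was -0.33 in ANG (SE 0.60, FDR = 0.996) and -0.30 in CHAR (SE 0.50, FDR = 0.981) in edgeR's quasi-likelihood test. Over both breeds it was -0.31 (SE 0.47, FDR = 0.9999). By the exact permutation test p was 0.571 for ANG and 0.6 for CHAR. Single steers decided these signs. The ANG value was -1.00 without the L-RFI steer F24 and 0.14 without the H-RFI steer F32, and the CHAR value was -0.95 without the L-RFI steer F46 and 0.03 without the L-RFI steer F33. By group median, LEPR went from KC L-RFI (2.79 CPM) through CHAR H-RFI (2.28), ANG H-RFI (1.76), ANG L-RFI (1.38) and CHAR L-RFI (1.30) to KC H-RFI (0.535), and each group overlapped the next. TLR5 and LEPR thus shared the same lowest group, in the contrast by which both were chosen.

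**Figure D3:**
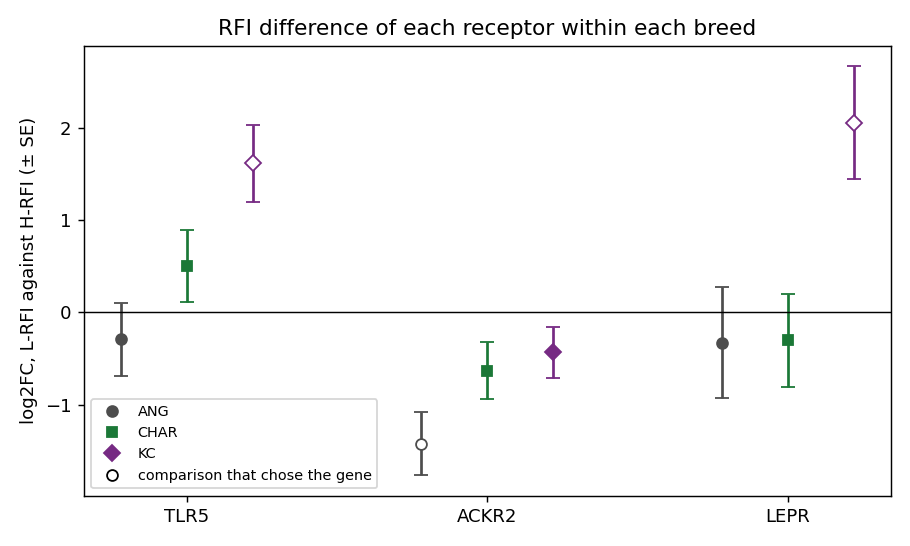
Log2FC of L-RFI against H-RFI (vertical axis, ± SE derived from the F statistic of edgeR's quasi-likelihood test within each breed) for the 3 receptors; circles are ANG, squares CHAR and diamonds KC, and open symbols mark the contrast that chose the gene. The filled symbols lie between -0.63 and 0.50, all at an FDR of at least 0.435.

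The breeds were compared over both RFI groups. The difference between breeds did not choose the genes, but the breed means hold the steers whose RFI contrast did. These are the ANG steers for ACKR2 and the KC steers for TLR5 and LEPR. In H-RFI steers ACKR2 was at 11.7 CPM in KC and 10.7 in ANG, and in L-RFI steers at 8.69 and 4.01. ACKR2 was at 10.2 ± 3.27 CPM in KC (SD, n = 8), 7.35 ± 4.27 in ANG (SD, n = 8) and 6.62 ± 2.26 in CHAR (SD, n = 6). Its log2FC was 0.62 for KC against ANG (SE 0.23, FDR = 0.144), -0.63 for CHAR against KC (SE 0.25, FDR = 0.107) and -0.02 for CHAR against ANG (SE 0.25, FDR = 0.986) in edgeR's quasi-likelihood test. The exact permutation test of CHAR against KC gave p = 0.0453 for ACKR2, and 0.603 after adjustment over the 15 permutation tests of the 3 genes. None of the ACKR2 values was called. KC against ANG called 0.409% of 14666 genes, CHAR against KC called 1.86% and CHAR against ANG called 0.245%. TPSB2, a tryptase gene of mast cells, was among the genes called lower in CHAR than in KC (log2FC -1.36, SE 0.44, FDR = 0.0574, edgeR). HDC, also a mast cell marker, was not called there (log2FC -0.62, SE 0.51, FDR = 0.465, edgeR). For CHAR against ANG the log2FC of TPSB2 was -1.02 (SE 0.44, FDR = 0.323, edgeR), where that of ACKR2 was -0.02. The part of either marker in the ACKR2 value was not tested.

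TLR5 was at 6.84 ± 2.57 CPM in CHAR (SD, n = 6), 5.57 ± 2.26 in ANG and 4.89 ± 3.17 in KC (SD, n = 8 each). The largest of its breed differences was CHAR against KC, at a log2FC of 0.68 (SE 0.32, FDR = 0.182, edgeR's quasi-likelihood test; p = 0.201 in the exact permutation test). KC against ANG was at -0.39 (SE 0.30, FDR = 0.486) and CHAR against ANG at 0.29 (SE 0.32, FDR = 0.746). The breed means of LEPR lay closer together than their SDs, at 1.93 ± 1.25 CPM in ANG, 1.78 ± 1.67 in KC (SD, n = 8 each) and 1.83 ± 0.781 in CHAR (SD, n = 6). Its log2FC lay between -0.44 and 0.36 in the 3 comparisons, with an FDR of at least 0.606.

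The 3 genes varied more between steers of the same group than most genes. The biological coefficient of variation of the fit over 22 steers was 0.396 for TLR5, 0.299 for ACKR2 and 0.560 for LEPR, while the trend at their levels was 0.292, 0.258 and 0.393. With log2 levels centred within each group, no relation between the genes passed the test over the 22 steers. Pearson's r was -0.13 for TLR5 with ACKR2 (permutation p = 0.566), -0.05 for TLR5 with LEPR (permutation p = 0.816) and 0.27 for ACKR2 with LEPR (permutation p = 0.360). Spearman's rho was -0.16, -0.01 and 0.14 (permutation p = 0.482, 0.959 and 0.611). Adjusted over the 3 relations, the smallest permutation p was 0.816 for r and 0.916 for rho. With the 2 steers left out that lay farthest from the first gene's median, r was 0.08, 0.09 and -0.08.

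Levels were also set against RFIfat inside the 11 H-RFI and inside the 11 L-RFI steers, centred within breed. For TLR5 Pearson's r was 0.52 in H-RFI (permutation p = 0.165) and -0.30 in L-RFI steers (permutation p = 0.467), and Spearman's rho was 0.55 and -0.39 (permutation p = 0.126 and 0.291). For ACKR2 r was -0.34 and 0.26 (permutation p = 0.307 and 0.555), and rho was -0.32 and 0.33 (permutation p = 0.376 and 0.382). For LEPR r was 0.16 and 0.46 (permutation p = 0.738 and 0.216), and rho was 0.14 and 0.39 (permutation p = 0.756 and 0.320). No relation passed after adjustment over the 6, with the smallest permutation p at 0.615 for r and 0.458 for rho. With the 2 steers left out whose RFIfat lay farthest from the median, r was 0.36 and -0.80 for TLR5, -0.83 and -0.29 for ACKR2, and -0.19 and -0.06 for LEPR, H-RFI first, so that the sign turned for ACKR2 in L-RFI and for LEPR in both groups.

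**Figure D4:**
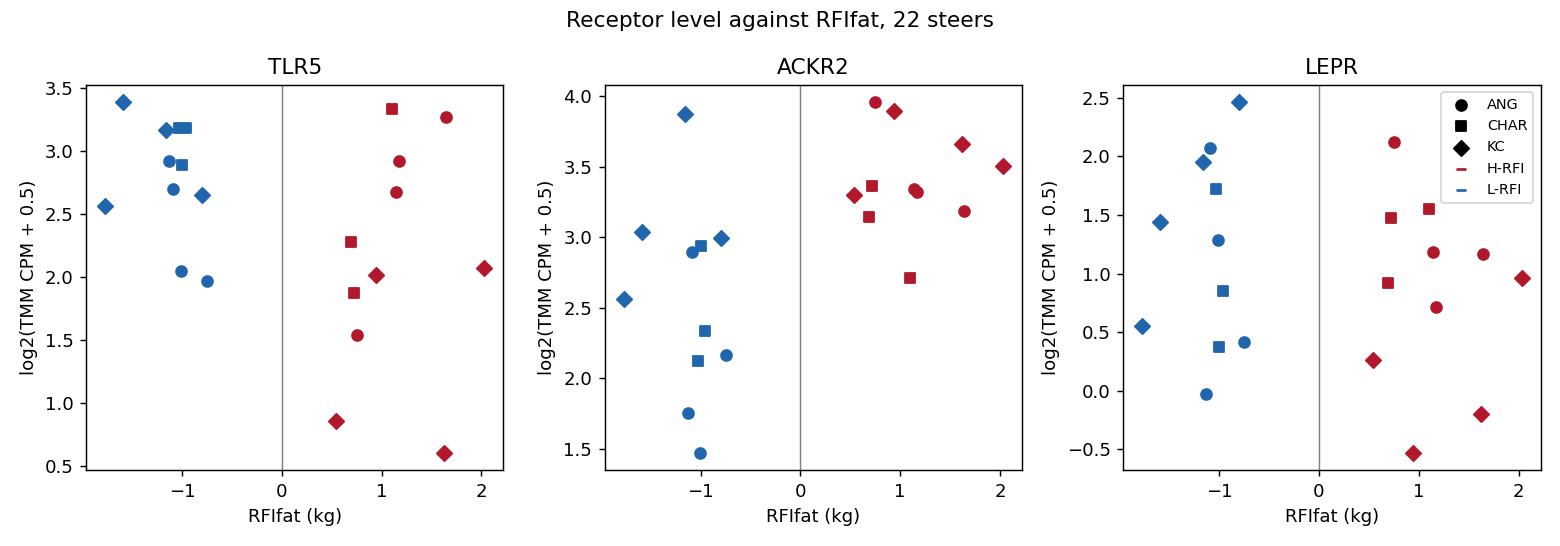
Log2(TMM CPM + 0.5) of TLR5, ACKR2 and LEPR (vertical axes) against RFIfat in kg (horizontal axes) in the 22 steers, H-RFI in red and L-RFI in blue; circles are ANG, squares CHAR and diamonds KC. Inside each RFI group the points scatter, with centred Pearson's r from -0.34 to 0.52 over its 11 steers. Without the 2 steers whose RFIfat lay farthest from the median, r ran from -0.83 to 0.36.

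The other genes of these pathways could be read only in small part. Of 92 genes listed for toll-like receptor signalling, chemokine receptors and their ligands, and the leptin receptor chain, 2 could be paired with an identifier of the table, and both carry a symbol because the study had listed them as differing in these steers. Neither is independent evidence of a direction. Neither was called by edgeR's quasi-likelihood test in the comparisons above, while the alternative fit of all 22 steers called CXCL8 within KC. DESeq2 and edgeR's exact test called both within KC, the contrast in which the study had listed them. Those calls carry that listing and are no separate support. CXCL8, a neutrophil chemokine and a target of toll-like receptor signalling, was at 0.893 ± 0.386 CPM in KC H-RFI and 3.63 ± 2.29 in KC L-RFI steers (SD, n = 4 each). Its log2FC was 1.99 in KC (SE 0.51), 0.41 in ANG (SE 0.59) and 0.53 in CHAR (SE 0.40). The sign of the ANG value rested on the L-RFI steer F18, at 4.62 CPM, as the other ANG L-RFI steers lay between 0.717 and 0.955 CPM and the ANG H-RFI steers between 0.885 and 1.74 CPM. CCRL2, an atypical receptor that binds chemerin, was at 1.43 ± 0.304 and 3.12 ± 1.06 CPM in the same KC groups, with a log2FC of 1.12 in KC (SE 0.32), -0.61 in ANG (SE 0.46) and 1.11 in CHAR (SE 0.37). Leptin (LEP), LEPROT, MYD88, JAK2, STAT3, SOCS3, CCL2 and CCL5 had no paired identifier and were not analysed here.

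Markers of other cell types in backfat were likewise paired for 6 of 51 genes, again genes that the study had listed. Of the 5 lymphatic endothelium markers looked for, PDPN was listed by the study in ANG and PROX1 in KC. The gap of PDPN in ANG and that of PROX1 in KC therefore carry that listing. Their difference in which breeds held the gap between RFI groups was not tested. PDPN was at 64.1 ± 24.3 CPM in ANG H-RFI and 27.9 ± 9.22 in ANG L-RFI (SD, n = 4 each). In the same order it was at 52.3 ± 18.3 and 26.7 ± 7.25 CPM in CHAR (SD, n = 3 each) and at 47.2 ± 21.9 and 53.2 ± 14.3 CPM in KC (SD, n = 4 each). PROX1 was at 2.66 ± 1.32 and 2.87 ± 0.911 CPM in the ANG groups, 2.19 ± 1.42 and 2.92 ± 0.397 in the CHAR groups, and 1.95 ± 0.790 and 6.15 ± 3.42 in the KC groups, with the same n.

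Of the 5 mast cell markers, TPSB2 and HDC were both listed by the study in ANG, the breed that chose ACKR2. Their log2FC within ANG were -1.54 and -1.92, values that carry that listing and are no separate support. Within KC the 2 markers had log2FC of -0.57 and -0.62. Within CHAR their log2FC of -1.33 and -1.11 rested on the H-RFI steer F48, at 27.96 CPM for TPSB2 and 10.4 for HDC, against 3.63 to 7.37 and 1.05 to 3.68 CPM in the other CHAR steers. Without F48 the values were -0.13 for TPSB2 and 0.60 for HDC, and that of ACKR2 was -0.47. PRX, a gene of myelinating Schwann cells, stood apart in the L-RFI steers F24 of ANG, at 26.9 CPM against 1.59 to 3.94 in the other ANG steers, and F33 of CHAR, at 30.5 CPM against 1.14 to 5.16 in the other CHAR steers. The study had listed PRX in CHAR, so that its CHAR value carries that listing. The log2FC of PRX was 1.94 within ANG and 0.12 without F24, 3.29 within CHAR and 1.39 without F33, and 0.75 within KC. The LEPR values given above moved in opposite directions without these steers. Leaving out F24, with 31 LEPR reads, lowered that of ANG to -1.00. Leaving out F33, with 9 LEPR reads, raised that of CHAR to 0.03. Without F46, whose PRX was at 5.16 CPM, the LEPR value of CHAR was -0.95. Between RFI groups within a breed, edgeR's quasi-likelihood test called none of the markers named here (smallest FDR = 0.143, PROX1 in KC). The exact test of edgeR called each in the breed where the study had listed it, a call that carries that listing. None of the markers named here was at 0 in any steer, and their part in the values of TLR5, ACKR2 and LEPR was not tested.

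The genes whose pattern over the 22 steers was most like that of each receptor were looked for among the 241 other genes that carry a symbol, all of them genes the study had listed in 1 or more breeds, so that their likeness is a description that partly carries the shared RFI contrast. For TLR5 they were MAATS1 (Spearman's rho of CPM = 0.81, n = 22), SLC10A6 (0.79), LOC616618 (0.73), PRDM6 (0.72) and ALPK2 (0.71). For ACKR2 they were ADGRG2 (rho = 0.81, n = 22), HTRA3 (0.80), SLC7A1 (0.79), HPCAL4 (0.79) and PSD3 (0.78). For LEPR they were NDNF (rho = 0.68, n = 22), ZMAT1 (0.67), LOC616942 (0.64), METTL4 (0.56) and ALPK2 (0.52). With log2 levels centred within the 6 groups, r for these genes was 0.51 to 0.71 for TLR5, 0.31 to 0.56 for ACKR2 and 0.23 to 0.56 for LEPR. Among all 14665 other genes, 12 without a symbol had a higher rho with TLR5 than MAATS1, up to 0.90. For ACKR2, 3 such genes were above ADGRG2, up to 0.84, and for LEPR 1 was above NDNF, at 0.72.

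RefSeq genes of ARS-UCD2.0, a build other than that of the counts, show ACKR2 overlapping CCDC13 and HIGD1A, and its counts are uncertain there because the strand setting of the counting is not given in the sources used here. TLR5 and LEPR overlap no other gene in that annotation.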

How the data were processed

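Subcutaneous backfat of 22 steers was profiled by RNA-Seq after removal of ribosomal RNA. The authors trimmed the paired reads, aligned them to UMD3.1 with TopHat2 2.0.9 and deposited raw counts per gene made with HTSeq 0.6.1 (SAMtools 1.1 is also named). The annotation version and strand setting are not given in the sources used here. The table holds 24616 genes and 5 summary lines, which stayed out of library sizes. Totals on genes were 8033008 to 12426133 reads per steer. Intervals cover counting error only.

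Symbols come from a supplementary table of the study that pairs 242 identifiers. Levels are TMM CPM over 22 steers. L-RFI and H-RFI were compared within breed by edgeR's quasi-likelihood test (edgeR 4.0.16 with limma 3.58.1 in R 4.3.3), keeping genes that passed 1 CPM in 50% or more of the breed's steers. Breeds, and means over breeds, were compared in a fit of 22 steers on genes with a mean CPM of at least 0.5. FDR is Benjamini-Hochberg adjusted over all genes tested. The SE of a log2FC is its size divided by the square root of the F statistic of the quasi-likelihood test. Exact permutation tests (2-sided) used log2(CPM + 0.5), and correlations 100000 resamples within breed or group. The smallest p was 0.0286 for 4 steers against 4. The labels number each steer separately and give no batch, so p-values measure the spread between steers. The quasi-likelihood test was checked on simulated counts in R. Permutation tests and correlations were run with python 3.11.15, numpy 2.4.6, pandas 2.3.3 and scipy 1.17.1, and figures were drawn with matplotlib 3.10.9.

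The 3 genes and the pathway and marker lists were chosen with earlier results of these data known. Named genes were these 3, listed pathway and marker genes with an identifier, and for each receptor the 5 genes with a symbol and the highest Spearman's rho. As alternatives, edgeR's exact test, DESeq2 1.42.0, RLE normalisation, other filters, a joint fit, a pseudocount of 1 and fits without each steer in turn were run. Leaving out the 6 steers of low ambiguous share was chosen after seeing the data. Of the paired markers, 1 is not reported here.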

Additional observations from a re-analysis of the deposited data

Results flagged for a closer look

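Of 12 groups of 4 steers examined for the 3 receptors, 1 held a steer far from the rest. ACKR2 in ANG H-RFI was at 15.0 CPM in F32, and the gap to the next steer was 0.838 of the group's range, against a limit of 0.829 for 4 samples. Chance flags about 1 in 20 such groups. Without F32 the log2FC of ACKR2 in ANG was -1.20.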

How the results depend on the processing

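No test of TLR5, ACKR2 or LEPR outside the contrast that chose the gene was called under any alternative, in 399 values over 18 results, of which 382 kept their sign and 17 turned. All differences of ACKR2 between KC and the other breeds stayed below 1 on the log2 scale, so that FDRs down to 0.0638 (KC against ANG) and 0.0704 (CHAR against KC) with 1 steer left out gave no call. LEPR is limited by depth, at 2 to 53 reads per steer.

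Without the 6 steers of low ambiguous share (chosen after seeing the data), the log2FC of TLR5 in ANG turned to 0.36 and that of LEPR for CHAR against KC to -0.0075, and the genes called fell to 0 within KC, 1 for KC against ANG, 3 for CHAR against ANG and 170 for CHAR against KC. These fits hold fewer steers. DESeq2 called 32 genes within ANG, 22 within CHAR, 173 within KC, 96 for KC against ANG, 104 for CHAR against ANG, 16 for the mean of ANG and CHAR and 71 for the mean of CHAR and KC. The exact test of edgeR called 46, 39 and 177 genes within ANG, CHAR and KC, and 1 fit of all 22 steers called 1 within CHAR and 109 within KC. The exact test kept the genes, normalisation and cut-offs of the quasi-likelihood fits within breed. It differed from them in the test and its estimate of variation, and its counts equal those the study reported. What moved the counts in the other settings was not tested.

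With 1 steer left out, the genes called were 0 to 1 within ANG, 0 to 1 within CHAR, 0 to 54 within KC, 21 to 132 for KC against ANG, 0 to 66 for CHAR against ANG, 0 to 2 for the mean of ANG and CHAR and 0 to 22 for the mean of CHAR and KC. The log2FC ran from -0.0058 to 0.43 for TLR5, -0.17 to 0.18 for ACKR2 and -0.40 to 0.26 for LEPR in CHAR against ANG, from -0.035 to 0.40 for TLR5 over ANG and CHAR, and for LEPR from -1.00 to 0.14 in ANG and from -0.95 to 0.030 in CHAR. With a pseudocount of 1 the difference of ACKR2 for CHAR against ANG turned its sign (exact permutation p = 0.984). Without centring by breed, r with RFIfat turned to 0.0082 in H-RFI and -0.20 in L-RFI for ACKR2 and to -0.12 in H-RFI for LEPR. No paired analysis was possible because the labels number every steer separately.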
